A study of Mus musculus with 9 samples.

Results

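The 36 genes described here carry glucose from uptake to lactate, sense oxygen, or belong to the response of mouse cells to low oxygen. They were chosen by symbol from 24736 genes in the deposited table, and all 36 were found and detected in every library. The study asked how SOX2 levels and WNT signalling shape caudal epiblast-like cells (CEpiLCs), the cultured counterpart of the epiblast cells that build the trunk. RNA-seq was done at 72 h (day 3) on WT, CdxKO (Cdx1/2/4-/-) and T/BraKO (T/Bra-/-) CEpiLCs, with 3 biological replicates of each genotype. All 9 cultures received 10 ng/ml bFGF and 5 uM LGK974, a Porcupine inhibitor that blocks secretion of WNT ligands, and for the last day also CHIR99021, which inhibits GSK3 and so turns on WNT signalling inside the cell. CDX1, CDX2 and CDX4 are homeodomain factors of the tail end of the embryo, and T (Brachyury) is a T-box factor of the primitive streak. The methods derive all ES cell lines from the XY line HM1 TetON, grown on fibroblast feeders that were removed by plating, and the labels name no second line for any genotype.

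Glycolysis converts glucose to pyruvate in the cytosol, and lactate dehydrogenase then reduces pyruvate to lactate, which leaves the cell through monocarboxylate transporters. When oxygen falls, prolyl hydroxylases of the EGLN family no longer mark HIF-1alpha for destruction, and the stabilised factor raises transcription of glucose transporters, glycolytic enzymes and pyruvate dehydrogenase kinases, which keep pyruvate out of mitochondria. Pluripotent cells and early embryonic epiblast are known for high glycolysis, and a switch between glucose transporters and hexokinases accompanies their differentiation.

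Total expected counts ranged from 25124337 to 34705355 per library. T fell from 12243 ± 2181 normalised counts (SD, n = 3) in WT to 2295 ± 563 in T/BraKO, and Cdx4 stood between 1.25 and 1.88 normalised counts in the CdxKO libraries. Cdx1 and Cdx2 transcripts were still counted in CdxKO, at 272 ± 68.8 and 1031 ± 516. Other genes separated the lines as well. Hprt stood at 21.7 ± 5.81 (WT), 22.4 ± 2.37 (CdxKO) and 3938 ± 303 (T/BraKO), and the Y-linked gene Ddx3y was at 0 in CdxKO against 1727 ± 55.7 in WT. A Y-linked gene at 0 in CdxKO does not match the XY origin that the methods give for all lines, and the reason was not tested. Line and mutation therefore cannot be told apart in any genotype difference given here. None of the 12 caudal epiblast markers searched was at 0 in all libraries, and their summed level lay between 793 and 1449 TPM (a transcript level scaled for gene length and depth). The 8 fibroblast markers, those of the feeder cells, were present too, and summed to 38.7 to 68.9 TPM in WT, 47.0 to 85.0 in CdxKO and 36.3 to 57.9 in T/BraKO. In bulk RNA, fewer cells of a type and less RNA per cell cannot be told apart. Libraries with the same replicate number deviated together in all 9 pairs, so each genotype comparison is given without and with replicate number as a term of the fit (the replicate block).

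HIF binds the hypoxia response element, whose core reads ACGTG or GCGTG. RefSeq start sites (GRCm38.p6) were found for 33 of the 36 genes, in 47 windows of 250 bases that end at the last base before the start. The core was searched on both strands (its other-strand forms are CACGT and CACGC, and in CACGTG a match on each strand overlaps). Of these 47 windows 38 held at least 1 match (80.9%), against 38.6% of all 32851 windows in the table. For ACGTG alone the numbers were 23 windows (48.9%) against 16.6%. Every core holds a CG, and the windows of these genes had a median of 14 CG dinucleotides and 62.8% G plus C, against 6 and 52.4% over all windows. The part of base composition in the matches was not tested. The stretches printed here are those of the P4ha1, Pdk1, Egln1, Bnip3 and Slc2a1 promoters that hold the matches, with matched letters in capitals. These genes were picked from those that passed a genotype comparison with the replicate block, given below, and others that passed are not printed. Among those others, Tpi1 had no match in its window. The window of a second Pdk1 start, not printed, had no match either. Genes that passed none also held matches, with 5 in a window of Ldha and 4 in that of Ankrd37. Whether matches go with the differences was not tested.
P4ha1: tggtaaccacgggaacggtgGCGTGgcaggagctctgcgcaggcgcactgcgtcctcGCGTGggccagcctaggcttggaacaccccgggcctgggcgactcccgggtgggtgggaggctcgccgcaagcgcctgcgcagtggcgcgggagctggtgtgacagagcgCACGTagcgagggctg
Pdk1: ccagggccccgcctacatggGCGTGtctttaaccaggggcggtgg
Egln1: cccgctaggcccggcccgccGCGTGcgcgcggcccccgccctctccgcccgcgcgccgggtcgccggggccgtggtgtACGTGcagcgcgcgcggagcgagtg
Bnip3: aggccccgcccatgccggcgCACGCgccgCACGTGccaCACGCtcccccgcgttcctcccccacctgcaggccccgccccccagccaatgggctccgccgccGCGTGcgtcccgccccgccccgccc
Slc2a1: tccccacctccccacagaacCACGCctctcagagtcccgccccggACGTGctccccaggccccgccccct
The P4ha1 stretch is chr10:59323113-59323295 on the plus strand and holds 3 matches. The Pdk1 stretch, chr2:71873126-71873170 on the plus strand, holds 1. The Egln1 stretch is chr8:124949298-124949400 on the minus strand with 2 matches, and the Bnip3 stretch is chr7:138909517-138909643 on the minus strand with 5, a pair of them on opposite strands of the same letters. The Slc2a1 stretch, chr4:119108664-119108733 on the plus strand, holds 2. Tpi1, Gpi1 and Eno2 had no match in their windows, which says only that these letters were not in these 250 bases. Bnip3l, Ndrg1 and Slc2a3 had no entry.

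Together the 36 genes made up between 1.26% and 1.53% of all TPM in a library, and the highest 6 of them gave most of it. The highest was Pkm, which makes pyruvate, at a median of 2264 TPM over the 9 libraries (2055 to 2311). Gapdh, the redox step of glycolysis, followed at 2052 TPM, then aldolase Aldoa at 1735, lactate dehydrogenase Ldha at 1709, phosphoglycerate kinase Pgk1 at 1053 and phosphoglycerate mutase Pgam1 at 958. Lowest were Ankrd37, a small ankyrin-repeat target of HIF, at 2.55 TPM, Pfkfb4 at 3.34 and the neuronal enolase Eno2 at 5.39. Neighbouring levels in this order often did not separate: Pkm (2055 to 2311 TPM) overlapped Gapdh (1916 to 2192), and Aldoa (1523 to 2254) overlapped both. Expected counts of Gapdh, Aldoa and Eno1 were fractional in all 9 libraries, so some of their reads also aligned elsewhere. Eno1 held only 8.61% to 15.0% of the summed TPM of Eno1 and its near-identical copy Eno1b, which is not among the 36. The 15 glycolytic enzymes of the 36 summed to 9250 to 11144 TPM, and to 13208 to 15552 TPM with Eno1b. The place of Eno1 in this order and the share of all TPM are therefore uncertain.

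**Figure D1:**
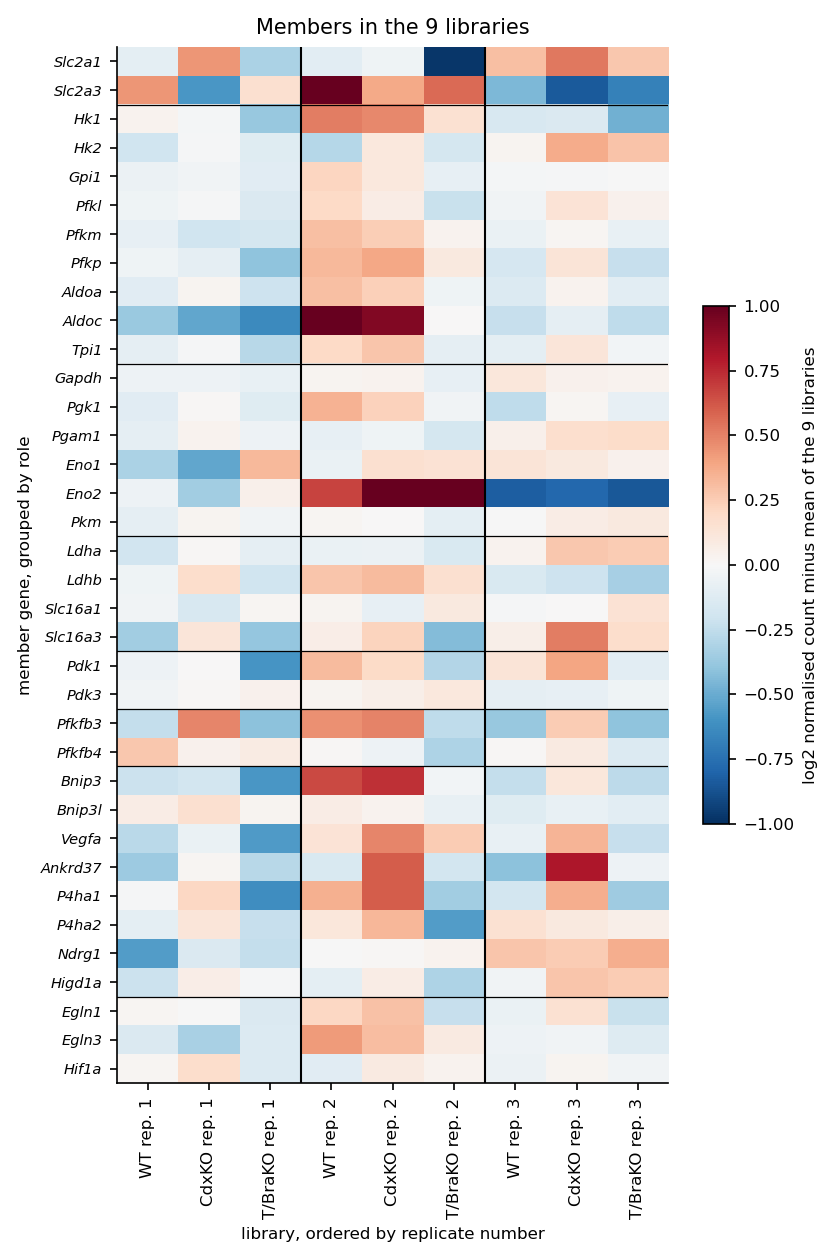
Heat map of the 36 genes (y axis, grouped by role) in the 9 libraries (x axis, ordered by replicate number). Colour is the log2 normalised read count minus that gene's mean over the 9 libraries, with values beyond 1 in either direction drawn at the end of the scale. The replicate 2 columns of WT and CdxKO are the reddest, led by Slc2a3, Aldoc, Eno2 and Bnip3, while Slc2a1 and Hk2 are highest in replicate 3.

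Without the block, none of the 36 genes passed an adjusted p of 0.05 between CdxKO and WT (DESeq2), where 0.335% of all genes tested were called higher and 0.358% lower. At an unadjusted p under 0.05 there were 2 higher and 0 lower, and edgeR called 0. T/BraKO against WT likewise gave 0 calls by DESeq2 and by edgeR (3 lower at an unadjusted p under 0.05), against 0.148% of all genes called higher and 0.937% lower. CdxKO against T/BraKO called 3 genes higher and 0 lower (1 lower at an unadjusted p under 0.05), against 2.52% and 0.962% of all genes. These were the collagen prolyl hydroxylase P4ha1, the fructose-2,6-bisphosphate enzyme Pfkfb3 and the pyruvate dehydrogenase kinase Pdk1. edgeR kept P4ha1 alone, with 0 lower.

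With the replicate block, CdxKO was higher than WT for 5 of the 36 genes (Hk2, Slc16a3, Pfkfb3, Vegfa and P4ha1) and lower for 1 (Slc2a3), against 3.40% and 1.91% of all genes. T/BraKO was lower than WT for 5 (Hk1, Pdk1, Bnip3, Egln1 and P4ha1) and higher for 0 (1 at an unadjusted p under 0.05, and 0 by edgeR with the block), against 4.85% and 4.83%. CdxKO was higher than T/BraKO for 14 and lower for 1, against 7.75% and 6.90%. The median log2 fold change over the 36 genes was 0.09, -0.13 and 0.16 in these comparisons, beside -0.00, 0.02 and -0.01 over all genes tested. The 3 comparisons share libraries, so their calls are not independent of each other. Single libraries mattered to these counts. Between CdxKO and WT the 5 became 3 without WT replicate 1 or CdxKO replicate 2 and 1 without WT replicate 3, CdxKO replicate 1 or CdxKO replicate 3. Between T/BraKO and WT the 5 became 3 without WT replicate 1, WT replicate 2 or T/BraKO replicate 2. Between the mutants the 14 became 9 without CdxKO replicate 1 or T/BraKO replicate 1. For all calls with the block but Pfkfb3 in CdxKO against WT, the blocked adjusted p was the lowest of 15 alternatives. The highest was 1 for each CdxKO call against WT, and 0.990 for P4ha1 and 1 for the other T/BraKO calls. Between the mutants it lay at 0.0332 for P4ha1, 0.116 for Pfkfb3, 0.316 for Pdk1, 0.354 for Egln1 and between 0.744 and 1 for the rest.

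**Figure D2:**
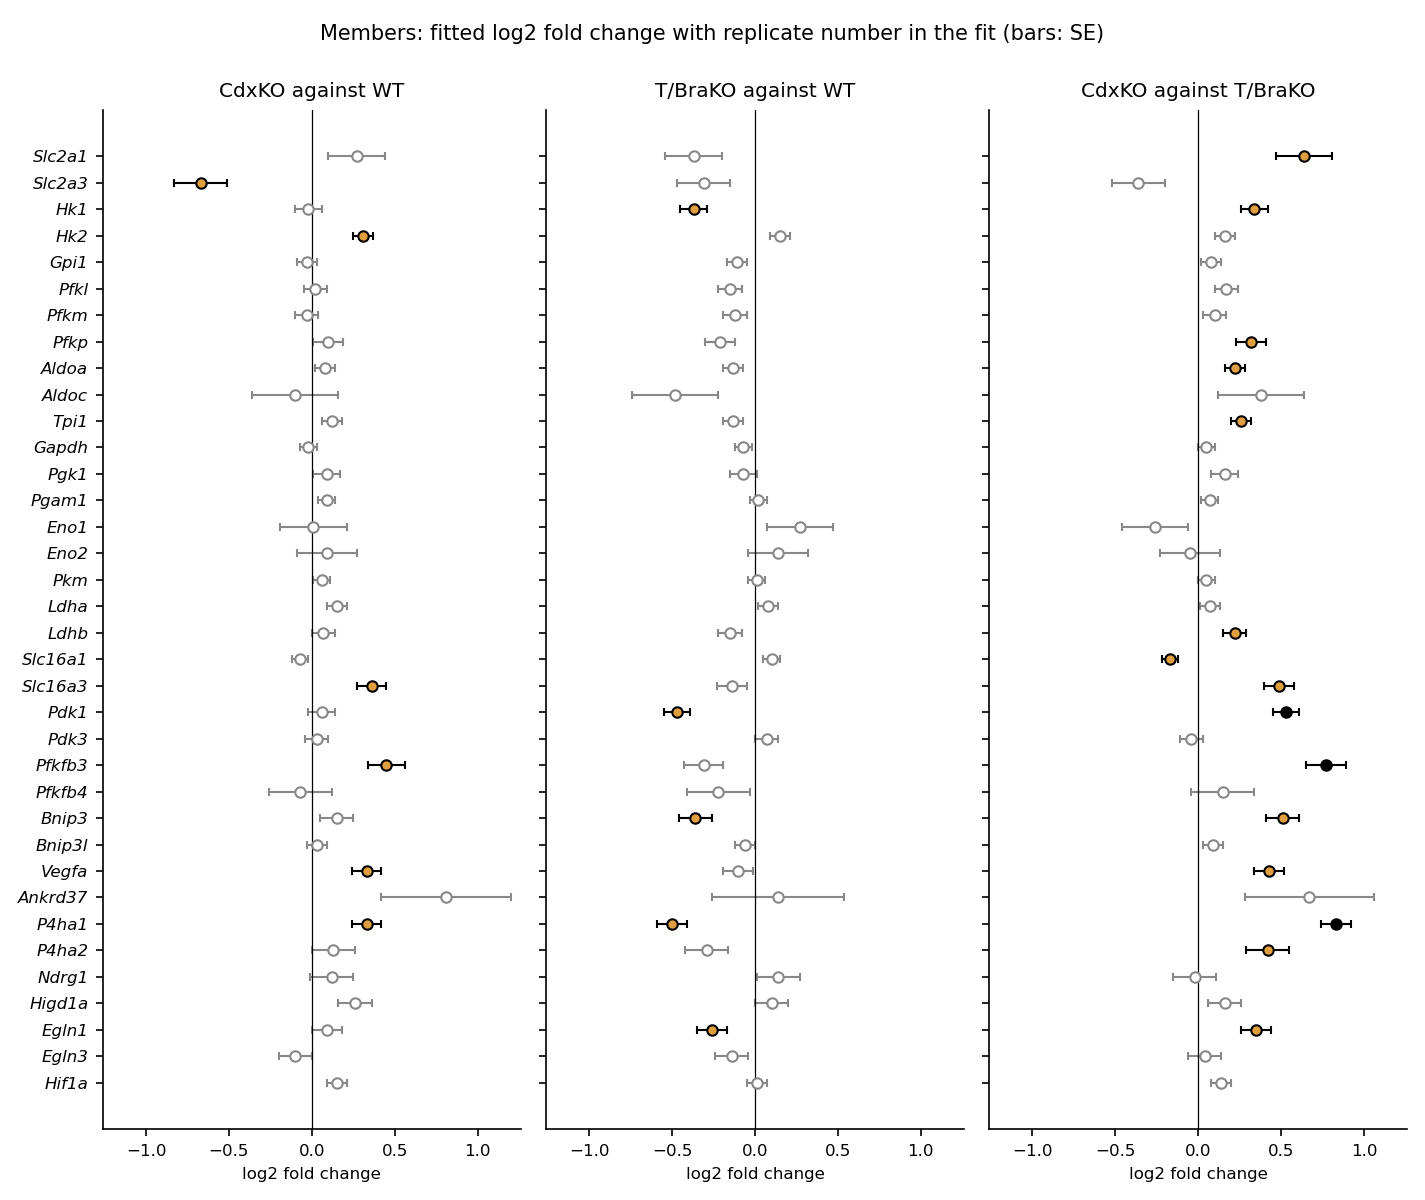
Fitted log2 fold changes (x axes) of the 36 genes (y axis) with replicate number in the fit, in the 3 genotype comparisons. Bars are standard errors. Black points passed an adjusted p of 0.05 with and without the block, orange points only with it, and open points did not pass with it. P4ha1 lies on opposite sides of 0 for the 2 mutants against WT, at 0.33 and -0.50.

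P4ha1 (chr10:59323296-59373304, mm10), whose product hydroxylates prolines of collagen in an oxygen-dependent step, moved most steadily. Its normalised read counts in replicates 1, 2 and 3 were 1899, 2445 and 1688 in WT, 2212, 2914 and 2459 in CdxKO and 1243, 1509.5 and 1494 in T/BraKO. Values of the genes that follow are in the same unit and order. All T/BraKO libraries lay below all WT and CdxKO libraries, and CdxKO was above WT within each replicate number. On the log2 scale CdxKO exceeded T/BraKO by 0.84 ± 0.17 (SE, adjusted p = 9.07e-05), and the call stood without each of the 9 libraries in turn. With the block, P4ha1 fell in T/BraKO against WT (-0.50 ± 0.09, adjusted p = 2.70e-06, called without each library in turn) and rose in CdxKO (0.33 ± 0.09, adjusted p = 0.00644). The latter call was lost without WT replicate 3 or any 1 CdxKO library, with an adjusted p of up to 0.234. Some feeder markers also differed between genotypes, not all in the same direction. Of the 8, 3 were higher in CdxKO than in T/BraKO without the block, namely Col1a1 (2113 ± 792 against 562 ± 191 normalised counts, adjusted p = 2.32e-05), Col1a2 (1164 ± 446 against 485 ± 157, adjusted p = 0.0267) and Postn (76.3 ± 65.3 against 5.17 ± 0.590, adjusted p = 1.36e-05), and Thy1 was lower (285 ± 76.1 against 658 ± 132, adjusted p = 2.00e-05). Postn and Pdgfrb were lower in T/BraKO compared with WT. With the block 4 were higher and 1 lower between the mutants, 4 were lower in T/BraKO against WT, and 2 were higher and 1 lower in CdxKO against WT. Their part in the genotype differences of the 36 genes was not tested.

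P4ha2, a second collagen prolyl hydroxylase subunit, had 611, 709 and 729 in WT, 711, 823 and 702 in CdxKO and 559, 444 and 683 in T/BraKO. All CdxKO libraries were above all T/BraKO libraries, and T/BraKO replicate 2 was the lowest. The difference was 0.42 ± 0.13 with the block (adjusted p = 0.0181). It was lost without WT replicate 1 or 3, CdxKO replicate 1 or 2, or T/BraKO replicate 1 or 2, where the adjusted p reached 0.320.

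Vegfa, the main angiogenic ligand of the hypoxia response, had 1036, 1373 and 1186 in WT, 1193, 1752 and 1583 in CdxKO and 843, 1494 and 1066 in T/BraKO. CdxKO was above WT and T/BraKO within each replicate number, although the ranges of the genotypes overlapped. Against T/BraKO the log2 fold change was 0.43 ± 0.09 with the block (adjusted p = 8.92e-05), called without each library in turn. Against WT it was 0.33 ± 0.09 (adjusted p = 0.0130), lost without WT replicate 2 or 3 or CdxKO replicate 1 or 3, with an adjusted p of up to 0.377.

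Bnip3, a mitochondrial protein that marks mitochondria for autophagy, had 1497, 2744 and 1474 in WT, 1531, 2878 and 1881 in CdxKO and 1164, 1706 and 1450.3 in T/BraKO. Replicate 2 was the highest library of every genotype, and T/BraKO was the lowest genotype within each replicate number. With the block it fell in T/BraKO against WT (-0.36 ± 0.10, adjusted p = 0.00712), and CdxKO exceeded T/BraKO (0.51 ± 0.10, adjusted p = 1.40e-05). The second call stood without each library in turn. The first was lost without WT replicate 1 or 2 or T/BraKO replicate 1 or 2, with an adjusted p of up to 0.345. Its relative Bnip3l stayed between 4692 and 5682 normalised counts and passed no genotype test.

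The remaining hypoxia targets passed no genotype test. Higd1a, a mitochondrial inner membrane protein, and Ankrd37 had all 3 CdxKO libraries above all 3 WT libraries, as did Hif1a and Slc16a3. That makes 4 of 36 genes, beside 5.26% of all genes. Mean normalised counts of Higd1a were 890.5 ± 55.8 (WT), 1067 ± 91.4 (CdxKO) and 964 ± 188 (T/BraKO). Ankrd37 averaged 27.0 ± 2.60, 47.7 ± 12.5 and 29.7 ± 2.38, a log2 fold change of 0.83 ± 0.34 for CdxKO against WT on few reads (adjusted p = 0.561). Ndrg1, a differentiation and stress gene, averaged 377 ± 105, 405 ± 57.1 and 412 ± 86.1.

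Among the oxygen sensors, Egln1, the main prolyl hydroxylase acting on HIF-1alpha, had 1483, 1689 and 1400.3 in WT, 1462, 1789 and 1624 in CdxKO and 1321, 1244 and 1253 in T/BraKO. All T/BraKO libraries were below all other libraries. With the block it fell in T/BraKO against WT (-0.26 ± 0.09, adjusted p = 0.0384) and against CdxKO, where the difference was 0.35 ± 0.09 (adjusted p = 0.000942; 0.0583 without the block). The latter stood without each library in turn. The former stood when CdxKO replicate 1 or T/BraKO replicate 1 was left out and was lost without any 1 of the other 7 libraries (up to 0.423). Egln3, a hydroxylase that HIF itself induces, passed no genotype test. Hif1a, which encodes the oxygen-labile HIF subunit, lay between 7797 and 9687 normalised counts in all 9 libraries. Its log2 fold change for CdxKO against WT was 0.15 ± 0.06 with the block (adjusted p = 0.204), which did not pass.

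**Figure D3:**
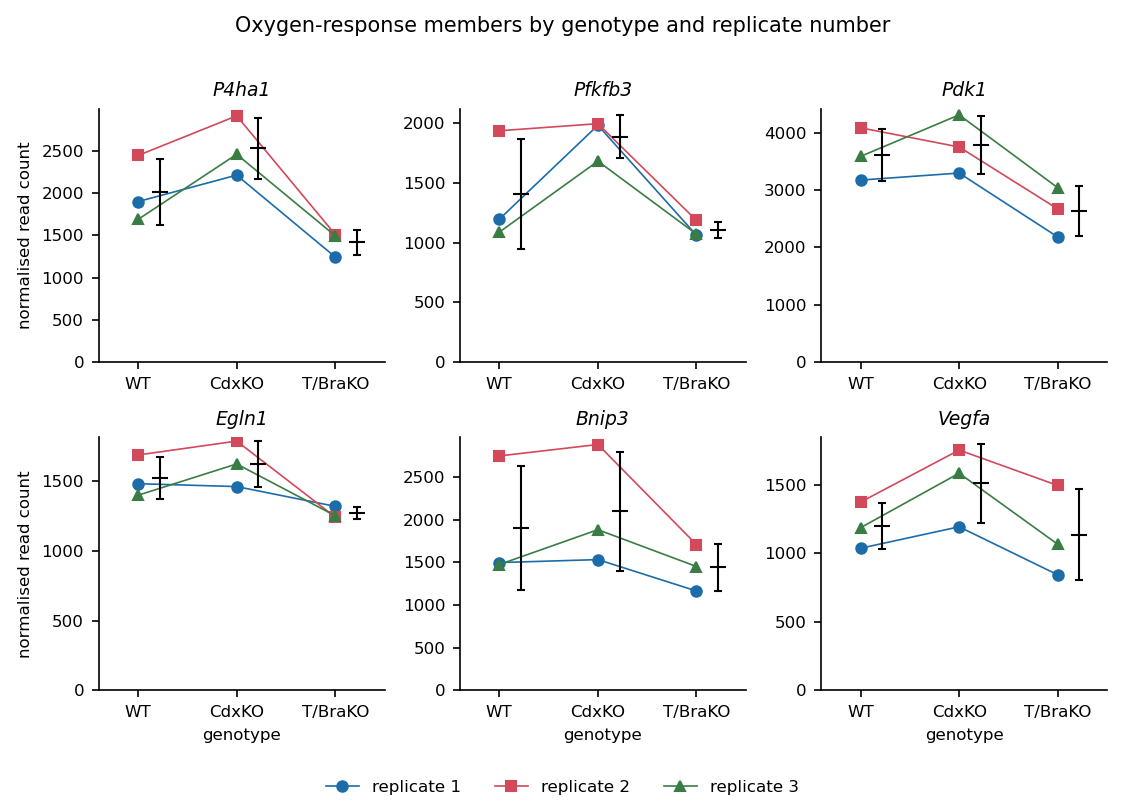
Normalised read counts (y axes, from 0) of 6 genes of the oxygen response by genotype (x axes). Lines join libraries of the same replicate number, and black bars give mean ± SD of 3 libraries. P4ha1 and Egln1 in T/BraKO lie below every other library, while Bnip3 and Vegfa vary with replicate number in all genotypes.

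Pdk1 (chr2:71873224-71903858), a kinase that switches off pyruvate dehydrogenase, had 3175, 4088 and 3588 in WT, 3298, 3753 and 4313 in CdxKO and 2183, 2673 and 3042 in T/BraKO. The 3 T/BraKO libraries were the lowest of the 9, and WT and CdxKO overlapped. CdxKO exceeded T/BraKO by 0.52 ± 0.16 without the block (adjusted p = 0.0409). That call was lost without WT replicate 3, CdxKO replicate 2 or 3, or T/BraKO replicate 1 or 2, with an adjusted p of up to 0.316. With the block the difference was 0.53 ± 0.08 (adjusted p = 5.28e-10), and T/BraKO was lower than WT by -0.47 ± 0.08 (adjusted p = 1.56e-07), both called without each library in turn. Pdk3, another kinase of the same enzyme, ran from 1536 to 1761 normalised counts and passed no genotype test. Pdk1 thus made up 32.8% to 41.9% of the summed Pdk1 and Pdk3 TPM in T/BraKO, and 42.9% to 51.3% elsewhere.

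Pfkfb3 (chr2:11471433-11554077), which makes the allosteric activator fructose-2,6-bisphosphate, had 1196, 1936 and 1088 in WT, 1983, 1996 and 1682 in CdxKO and 1061, 1186 and 1071 in T/BraKO. The T/BraKO libraries were within a narrow range at the low end, WT replicate 2 lay with CdxKO, and WT replicates 1 and 3 lay near T/BraKO. CdxKO exceeded T/BraKO by 0.77 ± 0.21 without the block (adjusted p = 0.00969), lost without CdxKO replicate 1 or 2 or T/BraKO replicate 1 or 3 (up to 0.102). With the block it was 0.77 ± 0.12 (adjusted p = 1.55e-09), called without each library in turn. CdxKO also exceeded WT with the block, by 0.45 ± 0.11 (adjusted p = 0.00317). That call was lost without WT replicate 1 or 3, CdxKO replicate 1 or 3, or T/BraKO replicate 1 or 2, with an adjusted p of up to 0.515. Over its 15 alternatives the adjusted p ranged from 2.01e-05 to 1. Its relative Pfkfb4 stayed at 125 to 187 normalised counts and passed no genotype test.

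Glucose enters through the transporters Slc2a1 (GLUT1) and Slc2a3 (GLUT3), the neuronal type with high affinity. Slc2a1 had 17286, 17181 and 22836 in WT, 25149, 17911 and 26647 in CdxKO and 14853, 9398 and 22245 in T/BraKO. CdxKO was the highest genotype within each replicate number, and T/BraKO replicate 2 was the lowest library. With the block, CdxKO exceeded T/BraKO by 0.64 ± 0.17 (adjusted p = 0.00273), lost without replicate 1 or 2 of either mutant (up to 0.173).
Slc2a3 had 24445, 35823 and 13182 in WT, 11975, 23340.2 and 10041 in CdxKO and 20071, 26612 and 11259 in T/BraKO. WT was highest and CdxKO lowest within each replicate number. CdxKO was lower than WT by -0.67 ± 0.16 with the block (adjusted p = 0.000819), lost without WT replicate 1 or 2 (up to 0.0771).

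In the steps of glycolysis from hexose to triose, 4 of 9 genes passed between the mutants with the block, all higher in CdxKO. Without the block 0 passed. Over all genes, 7.75% were called higher and 6.90% lower with the block. Hk1, the widely expressed hexokinase, had 1027, 1433 and 899.7 in WT, 991, 1403 and 909.6 in CdxKO and 771, 1114 and 718 in T/BraKO. T/BraKO was lowest within each replicate number while WT and CdxKO nearly coincided. With the block it fell in T/BraKO against WT (-0.37 ± 0.08, adjusted p = 0.000349) and against CdxKO (difference 0.34 ± 0.08, adjusted p = 0.000582), both called without each library in turn.
Hk2, the inducible hexokinase bound to mitochondria, had 4857, 4591 and 5702 in WT, 5539, 6007 and 7230.4 in CdxKO and 5129, 4949 and 6817 in T/BraKO. CdxKO was the highest genotype within each replicate number, with WT lowest. CdxKO exceeded WT by 0.31 ± 0.06 with the block (adjusted p = 5.02e-05), called without each library in turn.

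Pfkp, the platelet form of phosphofructokinase, had 1071, 1381 and 981 in WT, 1037, 1440.2 and 1205 in CdxKO and 837, 1183 and 942 in T/BraKO. The difference of CdxKO from T/BraKO was 0.32 ± 0.09 with the block (adjusted p = 0.00494), lost without CdxKO replicate 3 or T/BraKO replicate 1 (up to 0.126). Aldoa had 33804, 45003 and 33282 in WT, 37332, 43302 and 37482 in CdxKO and 31720.4, 35599.6 and 34123 in T/BraKO. All CdxKO libraries were above all T/BraKO libraries, and WT replicate 2 was the highest of the 9. Its difference was 0.22 ± 0.06 (adjusted p = 0.00703), lost without CdxKO replicate 1 or 3 or T/BraKO replicate 1 or 2 (up to 0.0997). Tpi1, triose phosphate isomerase, had 12074, 14724 and 12027 in WT, 12779, 15560.4 and 13943 in CdxKO and 10625, 12050.0 and 12609 in T/BraKO. Again no CdxKO library fell into the T/BraKO range. The difference was 0.26 ± 0.06 (adjusted p = 0.000858), called without each library in turn. The isomerase Gpi1, the liver and muscle phosphofructokinases Pfkl and Pfkm, and the brain aldolase Aldoc passed no genotype test. Of the 9 genes of these steps, the log2 fold changes between the mutants ran from 0.08 to 0.38 with the block.

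In the later steps of glycolysis none of the 6 genes Gapdh, Pgk1, Pgam1, Eno1, Eno2 and Pkm passed a genotype test, with or without the block. The largest share of all genes called in 1 direction was 7.75% with the block and 2.52% without it. A count of 0 therefore does not set these 6 genes apart, and they were not tested against the earlier steps. Their blocked log2 fold changes ran from -0.02 to 0.09 for CdxKO against WT and from -0.07 to 0.27 for T/BraKO against WT. The upper end of the latter was Eno1, which shares reads with its near-identical copy Eno1b. Eno1 had 11269.8, 13415 and 15388 in WT, 9785, 15708 and 15059.9 in CdxKO and 17611, 15569.9 and 14448 in T/BraKO, while Eno1b took 93022 to 110984. Eno1 is thus uncertain alone. Summed with Eno1b it was 0.13 ± 0.04 higher in T/BraKO than in WT with the block (adjusted p = 0.0347; 1 without the block).

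With the block, lactate steps gave calls in both directions between the mutants. Slc16a3 (MCT4), the transporter that exports lactate from glycolytic cells, had 5166, 6868 and 6858 in WT, 7144, 7688 and 9385 in CdxKO and 5036, 4879 and 7439.9 in T/BraKO. CdxKO was highest within each replicate number. It exceeded T/BraKO by 0.49 ± 0.09 with the block (adjusted p = 2.98e-07; 0.240 without it), lost without CdxKO replicate 1 (0.0590), and WT by 0.36 ± 0.09 (adjusted p = 0.00145). The latter was lost without WT replicate 1 or 3 or any 1 CdxKO library (up to 0.574).
Slc16a1 (MCT1), a transporter for import as well as export, had 6933, 7222 and 7042 in WT, 6352, 6714 and 7115 in CdxKO and 7203, 7607 and 7867 in T/BraKO. All CdxKO libraries were below all T/BraKO libraries. It was the 1 gene of the 36 called lower in CdxKO than in T/BraKO with the block (-0.17 ± 0.05, adjusted p = 0.0146). That was lost without CdxKO replicate 1 or 2 or T/BraKO replicate 3 (up to 0.137).
Ldhb, the form of lactate dehydrogenase of oxidative tissues, had 3879.6, 4841 and 3596 in WT, 4508, 4977 and 3449 in CdxKO and 3479.6, 4455 and 3169 in T/BraKO. Replicate 2 was high and replicate 3 low in each genotype, and CdxKO exceeded T/BraKO by 0.22 ± 0.07 with the block (adjusted p = 0.0101), lost without CdxKO replicate 1 or T/BraKO replicate 1 or 3 (up to 0.162). Ldha, the form favoured by glycolytic cells, passed no genotype test.

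Without overlap between the libraries, CdxKO was above T/BraKO for 9 of the 36 genes (Aldoa, Tpi1, Pgk1, Pdk1, Pfkfb3, Egln1, Ankrd37, P4ha1 and P4ha2) beside 8.17% of all genes, and below for 1 beside 6.92%. T/BraKO was below WT for 3 (Pdk1, Egln1 and P4ha1) beside 5.54%. For CdxKO below WT there was none, beside 4.58%, and for T/BraKO above WT none, beside 3.69%.

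Other genes of the same pathways give the surroundings of these values. Among further HIF targets, Plod2, a collagen lysyl hydroxylase, was higher in CdxKO (4418 ± 123 normalised counts) than in WT (3722 ± 110) without the block, by 0.25 ± 0.07 on the log2 scale (adjusted p = 0.0331). It was lower in T/BraKO, at 3108 ± 119, compared with WT (-0.26 ± 0.07, adjusted p = 0.0127). Between the mutants, genes higher in CdxKO included the lysyl oxidase Loxl2 (1.09 ± 0.24, adjusted p = 0.000294), Plod2 (0.51 ± 0.07, adjusted p = 1.08e-11) and the related Plod1 (0.38 ± 0.10, adjusted p = 0.00493). P4ha1, Plod1, Plod2 and Loxl2 all act on collagen chains. Of 31 further HIF targets tested without the block, 2 were higher in CdxKO than in WT and 0 lower, against 0.335% and 0.358% of all genes. In T/BraKO against WT 1 was lower and 0 higher (0.937% and 0.148%). Between the mutants 4 were higher in CdxKO and 0 lower (2.52% and 0.962%). Calls with the block included targets other than these collagen genes, such as Bhlhe40 (0.60 ± 0.08) and Stc2 (0.59 ± 0.11), higher in CdxKO than in WT.
With the block, the further HIF targets called among 30 tested were 6 higher in CdxKO than in WT, 1 higher and 8 lower in T/BraKO than in WT, and 13 higher in CdxKO than in T/BraKO with 0 lower. The shares over all genes were 3.40%, 4.83%, 4.85% and 7.75% in the same order. Of 10 HIF regulators, Hif3a, a HIF subunit whose short forms restrain the others, fell in T/BraKO (727 ± 165) against WT (1573 ± 502, -1.11 ± 0.29, adjusted p = 0.0163). It also fell against CdxKO (1491 ± 529, difference 1.04 ± 0.29, adjusted p = 0.0149). These values are without the block. With the block Hif3a was the 1 of the 10 called higher in CdxKO than in T/BraKO, against 7.75% of all genes. The 2 called lower, against 6.90%, were Crebbp (-0.28 ± 0.07, adjusted p = 0.0013) and Ep300 (-0.17 ± 0.06, adjusted p = 0.0401). Of 20 genes of the tricarboxylic acid cycle and pyruvate dehydrogenase, 0 passed without the block, and 1, Pdhb, with it, higher in CdxKO than in WT (0.30 ± 0.07, adjusted p = 0.000250) and than in T/BraKO (0.18 ± 0.07, adjusted p = 0.0376). All 7 genes of the pentose phosphate pathway missed the threshold in the 3 genotype comparisons with and without the block. Over all genes at most 7.75% were called in 1 direction in these comparisons, so such counts do not set these 2 pathways apart.

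The 36 genes were also compared by replicate number. Each comparison rests on 3 libraries a side, 1 of each genotype, with genotype in the fit. Replicate 1 was lower than replicate 2 for 18 of the 36 genes, where 13.8% of all genes were called lower. It was higher for 0, against 16.6% of all genes (1 at an unadjusted p under 0.05, and 0 by edgeR). Replicate 3 was lower than replicate 2 for 14 and higher for 6, against 20.1% and 21.8%. Replicate 1 was lower than replicate 3 for 7 (Hk2, Pgam1, Ldha, Slc16a3, Pdk1, Vegfa and Ndrg1) and higher for 4 (Slc2a3, Eno2, Ldhb and Bnip3l), against 8.03% and 9.17%. The 3 comparisons share libraries. Replicate 2 was the highest library within every genotype for 15 genes, beside 22.4% of all genes, and the lowest within every genotype for Slc2a1 alone, beside 24.1%. Calls below replicate 2 depended most on WT: without the 3 WT libraries the 18 became 9 and the 14 became 6, and without WT replicate 3 alone the 14 became 7. The 4 higher in replicate 1 than in replicate 3 became 2 without WT replicate 3, CdxKO replicate 1 or CdxKO replicate 3.

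The enolase Eno2 changed more than any other of the 36 genes in replicate 3 against 2. It had 200.3, 333 and 118 in WT, 163, 453 and 120.4 in CdxKO and 215, 416 and 116 in T/BraKO. In each genotype replicate 2 was highest and replicate 3 lowest, with log2 fold changes of -1.05 ± 0.17 (replicate 1 against 2, adjusted p = 4.29e-08) and -1.76 ± 0.18 (replicate 3 against 2, adjusted p = 1.78e-21). Aldoc had 799, 2330.1 and 880.1 in WT, 719.8, 1956 and 971 in CdxKO and 663, 1035 and 866 in T/BraKO. Replicate 2 stood far above the others in WT and CdxKO, and above them by less in T/BraKO. Its log2 fold changes were -1.24 ± 0.26 (adjusted p = 1.99e-05) and -0.91 ± 0.25 (adjusted p = 0.00145). Both enzymes are minor forms: Eno2 was at most 0.232% of enolase TPM with Eno1b counted, and Aldoc at most 2.71% of Aldoa plus Aldoc.

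Slc2a3 and Slc2a1 moved in opposite directions. Slc2a3 in replicate 3 was at 0.407 times its level in replicate 2 (SE 0.16 on the log2 scale, adjusted p = 2.91e-15). It fell by 0.63 ± 0.16 on the log2 scale in replicate 1 against 2 (adjusted p = 0.000443) and stood 0.67 ± 0.16 higher in replicate 1 than in replicate 3 (adjusted p = 0.000388), a call lost without WT replicate 3 (0.0758). Slc2a1 rose by 0.74 ± 0.17 in replicate 3 against replicate 2 (adjusted p = 9.82e-05), and its 0.38 ± 0.17 in replicate 1 against 2 did not pass (adjusted p = 0.0819). Slc2a1 as a share of the summed TPM of both transporters was 42.7% to 72.9% in WT, 54.4% to 80.5% in CdxKO and 35.5% to 75.5% in T/BraKO. Replicate 2 had the lowest and replicate 3 the highest share in each genotype, and CdxKO had the highest share within each replicate number.

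**Figure D4:**
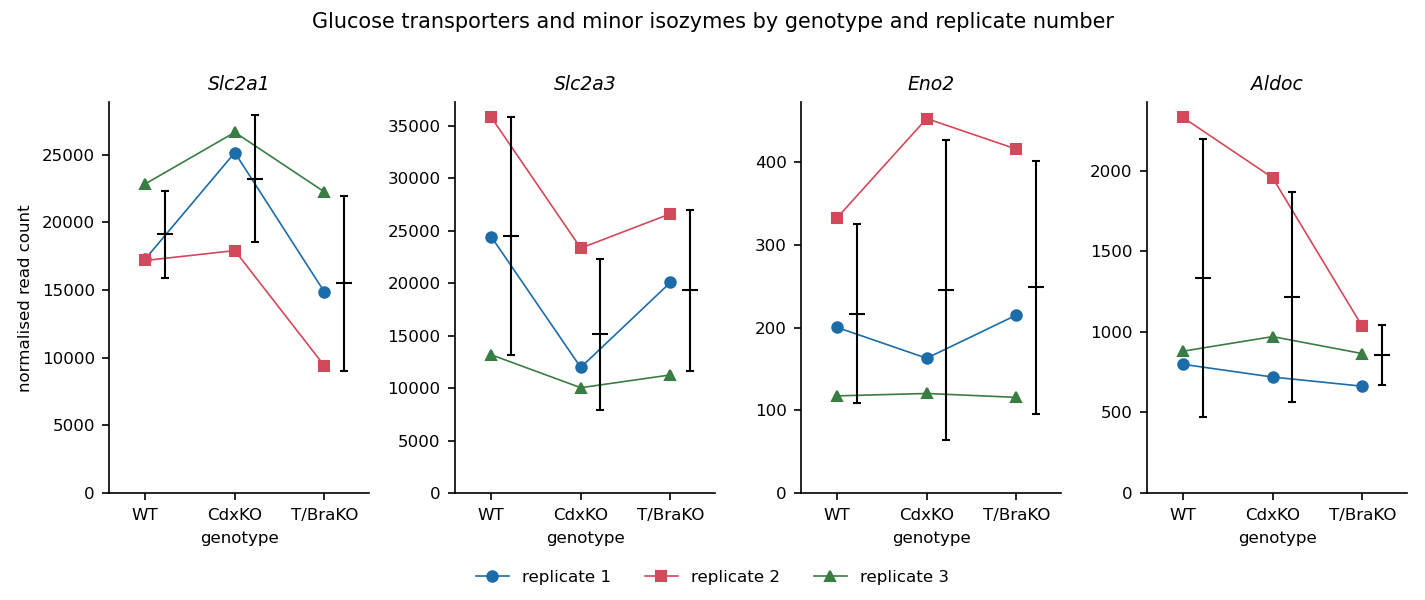
Normalised read counts (y axes, from 0) of Slc2a1, Slc2a3, Eno2 and Aldoc by genotype (x axes). Lines join libraries of the same replicate number, and black bars give mean ± SD of 3 libraries. Slc2a3 and Eno2 are highest in replicate 2 and lowest in replicate 3 in all genotypes, and Slc2a1 is lowest in replicate 2.

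Hexokinases split in the same way in replicate 3 against 2. Hk1 fell by 0.50 ± 0.08 in replicate 1 and by 0.64 ± 0.08 in replicate 3 against replicate 2 (adjusted p = 3.20e-08 and 1.03e-13), whereas Hk2 rose by 0.35 ± 0.06 in replicate 3 against 2 (adjusted p = 1.76e-07) and stood at 0.00 ± 0.06 in replicate 1 against 2 (adjusted p = 0.964). Hk2 made up 70.6% to 76.9% of hexokinase TPM (Hk1 plus Hk2) in replicate 2 and 82.6% to 87.7% in replicate 3. Lactate dehydrogenases did likewise in replicate 3 against 2. Ldhb fell by 0.48 ± 0.07 in replicate 3 and by 0.27 ± 0.07 in replicate 1 against replicate 2 (adjusted p = 6.75e-12 and 0.000388), and Ldha rose by 0.28 ± 0.06 in replicate 3 against 2 (adjusted p = 1.58e-05) and stood at 0.00 ± 0.06 in replicate 1 against 2 (adjusted p = 0.999). Also higher in replicate 3 than in replicate 2 were Pgam1 (0.24 ± 0.05), Slc16a3 (0.29 ± 0.08) and Higd1a (0.28 ± 0.10). Of these the Slc16a3 call was lost without any 1 CdxKO library or T/BraKO replicate 2 or 3 (up to 0.200), and the Higd1a call without CdxKO replicate 3 or T/BraKO replicate 2 or 3 (up to 0.242).

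Of the hypoxia targets, Bnip3 fell by 0.79 ± 0.10 in replicate 1 and by 0.58 ± 0.10 in replicate 3 against replicate 2 (adjusted p = 4.10e-13 and 5.16e-08), both called without each library in turn. Vegfa fell by 0.60 ± 0.09 in replicate 1 against 2 (adjusted p = 6.20e-09) and by 0.28 ± 0.09 in replicate 3 against 2 (adjusted p = 0.00673), the second lost without WT replicate 3 or T/BraKO replicate 2 or 3 (up to 0.134). Egln3 had 706, 1047 and 751 in WT, 621, 962 and 757 in CdxKO and 707, 826 and 712 in T/BraKO. Replicate 2 was the highest in each genotype, with -0.47 ± 0.10 for replicate 1 (adjusted p = 6.36e-05) and -0.35 ± 0.10 for replicate 3 (adjusted p = 0.00254), the second lost without WT replicate 2 or 3 (up to 0.0616). Ndrg1 had 266, 391 and 475 in WT, 354, 395 and 467 in CdxKO and 332, 400.3 and 503 in T/BraKO. It had its lowest level in replicate 1 and its highest in replicate 3 in every genotype, with -0.61 ± 0.13 for replicate 1 against 3 (adjusted p = 9.59e-05), called without each library in turn, and -0.32 ± 0.13 for replicate 1 against 2 (adjusted p = 0.0483), lost in 8 of the 9 fits that left out 1 library. P4ha1, the gene that separated the mutants most steadily, was also lower in replicate 1 (-0.35 ± 0.09, adjusted p = 0.000862) and replicate 3 (-0.26 ± 0.09, adjusted p = 0.0101) than in replicate 2. The first of these was lost without WT replicate 2 (0.0643) and the second without WT replicate 2 or 3 or CdxKO replicate 2 (up to 0.227).

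The 6 genes Pfkm, Pfkp, Aldoa, Pgk1, Pfkfb3 and Gpi1 fell in replicate 1 against 2, by 0.15 (Gpi1) to 0.44 (Pfkp), and all but Gpi1 also in replicate 3 against 2, by 0.24 to 0.42. Tpi1 and Pdk1 fell in replicate 1 against 2, by 0.25 and 0.28, and did not pass in replicate 3 against 2. Pdk1 was also lower in replicate 1 than in replicate 3 (-0.35 ± 0.08, adjusted p = 0.000155), called without each library in turn. Of the calls in replicate 1 against 2, Pgk1 was lost in 6 of the 9 fits that left out 1 library, and Pfkfb3 and Gpi1 in 7. In replicate 3 against 2, Pfkm was lost without WT replicate 2 or 3 or CdxKO replicate 2 (up to 0.0997), Aldoa without WT replicate 3 (0.0577), Pgk1 in 5 of those fits and Pfkfb3 in 4. The Pdk1 call in replicate 1 against 2 was lost without WT replicate 2 or T/BraKO replicate 1 (up to 0.101). Bnip3l was 0.19 ± 0.06 higher in replicate 1 than in replicate 3 (adjusted p = 0.00900), lost without WT replicate 3 or CdxKO replicate 1 or 3 (up to 0.0997). Pfkl, Gapdh, Eno1, Pkm, Slc16a1, Pdk3, Pfkfb4, Egln1, Ankrd37, P4ha2 and Hif1a passed none of the 3 replicate comparisons. How many of all genes passed none was not counted.

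Other measures moved with replicate number. Summed naive pluripotency markers (8 genes) were 23.5 to 34.1 TPM in replicate 1, 47.3 to 63.4 in replicate 2 and 35.8 to 41.9 in replicate 3. The 12 caudal epiblast markers were 1288 to 1449, 793 to 1199 and 1212 to 1404.5 TPM, and the 8 epiblast markers 954 to 1362, 1147 to 1587 and 1591 to 2025 TPM. The 8 feeder markers summed to 57.9 to 62.9, 49.6 to 85.0 and 36.3 to 47.0 TPM, with replicate 3 lowest in each genotype, and 4 of them passed as lower in replicate 3 than in replicate 2 (Col1a1 -1.07 ± 0.12, Col1a2 -0.96 ± 0.14, Postn -1.77 ± 0.47 and Pdgfrb -0.49 ± 0.16). The paraxial mesoderm gene Hes7 was higher in replicate 1 than in replicate 2 (2.55 ± 0.22), as was the endoderm gene Cer1 (3.11 ± 0.54). The ribosomal transcript Rn45s took 1.69% to 4.21% of counts in replicate 1 and 0.343% to 0.992% in the others. Their part in the differences by replicate number was not tested.

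**Figure D5:**
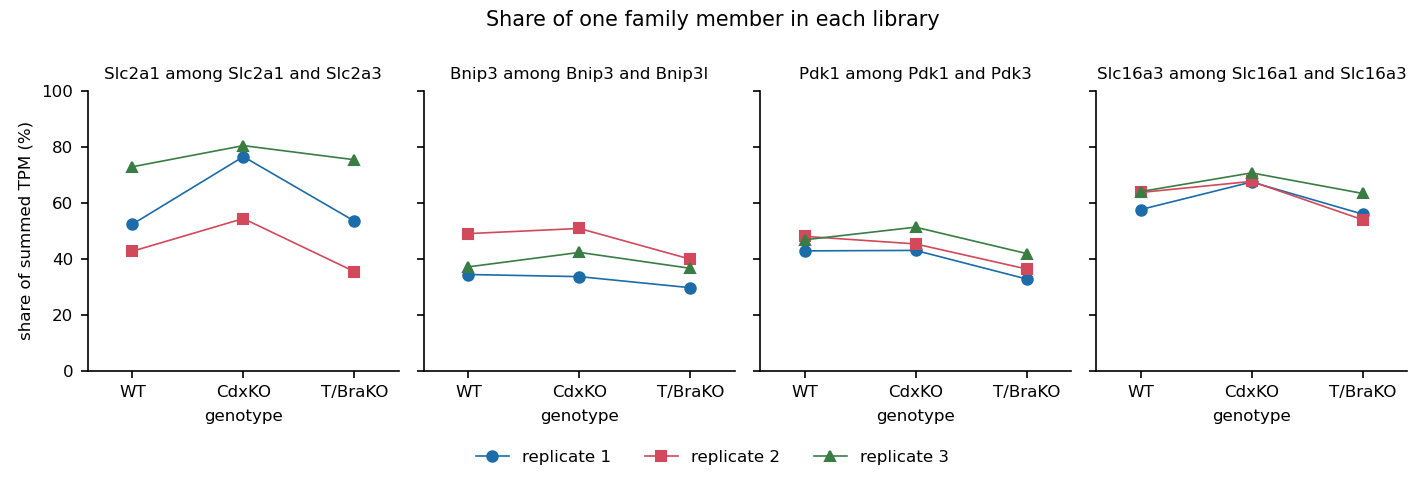
Share of 1 gene in the summed TPM of its family pair (y axes, percent) by genotype (x axes), with lines joining libraries of the same replicate number. The Slc2a1 share is lowest in replicate 2 and highest in replicate 3 in each genotype, and the Pdk1 share is lowest in T/BraKO within each replicate number.

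The spread by genotype and by replicate number can be set side by side for each gene. The median fold between the highest and lowest library was larger within a genotype than within a replicate number for 22 of the 36 genes (61.1%), beside 70.0% of all 14156 genes above 0 in every library. It was larger within a replicate number, thus across genotypes, for the other 14, led by P4ha1 (1.78 against 1.32), Ankrd37 (1.74 against 1.19), Slc2a1 (1.69 against 1.49), Pfkfb3 (1.68 against 1.19) and Pdk1 (1.51 against 1.31). The largest folds within a genotype were those of Eno2 (3.59 against 1.32), Aldoc (2.72 against 1.21), Slc2a3 (2.36 against 1.53) and Bnip3 (1.86 against 1.32). Pkm varied least, at 1.08 within a genotype.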

How the data were processed

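RNA from 9 libraries of mouse CEpiLCs (3 each of WT, CdxKO and T/BraKO) was sequenced by the authors as strand-specific single-end reads. Per the submitters' notes and the methods, reads were trimmed with cutadapt 1.16 and assigned to mm10 RefSeq genes with STAR 2.5.2a and RSEM 1.3.0. The deposited table holds expected counts, which split reads shared by several genes and so need not be whole, and TPM, which the authors scaled for gene length and depth. Total counts were 25124337 to 34705355 a library. Unless stated, each test used all 9 libraries, so the third genotype also entered its estimate of spread. The p-values measure the spread between these 3 libraries a group, and with the block what is left of it after replicate number. The labels call them biological replicates and name no separate culture for each.

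Expected counts were rounded and tested with DESeq2 1.42.0 in R 4.3.3 over all genes, with adjusted p at most 0.05 (Benjamini-Hochberg) and unshrunken fold changes, first with genotype alone and then with replicate number as a block. Normalised read counts are expected counts divided by DESeq2 size factors. The labels number the biological replicates 1 to 3 without saying what a number shares. Deviations from the genotype means correlated between same-numbered libraries in all 9 pairs (r = 0.532 to 0.814 over 12316 genes), so the block is printed beside calls it changes. Alternatives were TMM factors, a filter of 10 counts in 3 libraries, edgeR 4.0.16, the 6 libraries compared, and each library or genotype left out. The summed Eno1 and Eno1b counts, and the block with each library left out, were added after the data were seen. Fits were tested on simulated data. Gene coordinates are those of GENCODE vM21 and promoters those of RefSeq.

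The 36 genes and the other gene lists were chosen with earlier results of these data known. All 36 are named. Values in every library are given for genes called in a genotype comparison, with or without the block, and for the 10 largest changes by replicate number. Up to 4 genes a comparison are named from other lists, of which 1 gene is not reported here, and T, Cdx1, Cdx2, Cdx4, Hprt and Ddx3y serve as checks of the lines. Other glycolytic isoforms and neural, endoderm and paraxial mesoderm markers come last.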

Additional observations from a re-analysis of the deposited data

Results flagged for a closer look

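With the replicate block, the differences of the CdxKO and T/BraKO lines from WT were unequal for 15 of the 36 genes. The measure was the direct test of CdxKO against T/BraKO (DESeq2, adjusted p at most 0.05). Without the block 3 of the 15 passed. Line and mutation cannot be told apart here. With the block 8 of the 15 calls stood without each library in turn. Without the replicate block the log2 differences were 0.84 for P4ha1, 0.77 for Pfkfb3 and 0.52 for Pdk1. With the block they were 0.64 for Slc2a1, 0.51 for Bnip3, 0.49 for Slc16a3, 0.43 for Vegfa, 0.42 for P4ha2, 0.35 for Egln1, 0.34 for Hk1, 0.32 for Pfkp, 0.26 for Tpi1, 0.22 for Aldoa, 0.22 for Ldhb and -0.17 for Slc16a1. Over all genes, 2.52% were called higher and 0.962% lower in this comparison without the block, and 7.75% and 6.90% with it.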

How the results depend on the processing

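Counts follow as members higher, members lower and all genes called. With the replicate block they were 5, 1 and 736 for CdxKO against WT, 0, 5 and 1237 for T/BraKO against WT, and 14, 1 and 2187 for CdxKO against T/BraKO. With edgeR and the block they were 3, 1 and 681, then 0, 4 and 1383, then 15, 2 and 2732. With edgeR and no block all genes called were 16, 56 and 237, and 1 member was higher between the mutants. Without the WT libraries 9 members were lower in replicate 1 against 2 (1723 genes called), 6 in replicate 3 against 2 (3386), and 0 were higher and 4 lower in replicate 1 against 3 (594). Without CdxKO these were 2090 genes in replicate 1 against 2, and 2, 4 and 1307 in replicate 1 against 3. Without T/BraKO they were 2407 genes, and 0 higher of 873 genes. TMM factors, the count filter and the 6-library fits moved none of these counts by over 1.5 times. The causes were not tested.

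With 1 library left out, ranges without the block were 0 to 1, 0 to 0 and 59 to 140 (CdxKO against WT), 0 to 0, 0 to 1 and 118 to 214 (T/BraKO against WT), 1 to 5, 0 to 0 and 370 to 630 (between the mutants). With the block they were 1 to 6, 0 to 1 and 276 to 906, then 0 to 0, 3 to 6 and 498 to 1182, then 9 to 17, 0 to 1 and 1283 to 1985. For replicate 1 against 2 they were 0 to 1, 12 to 18 and 2749 to 3971, for replicate 3 against 2 4 to 7, 7 to 16 and 4687 to 6185, and for replicate 1 against 3 2 to 4, 6 to 9 and 1199 to 2593. Of the gene-level values under all alternatives, 937 kept direction and side of the threshold, 53 came to pass it, 140 no longer passed, and 1 reversed: Eno1 in replicate 3 against 2, -0.05 when summed with Eno1b, from 0.01. Ankrd37 and Pfkfb4 had few reads, and what size of difference their depth could show was not tested.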

Other observations

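Of 26 further glycolytic isoforms and side enzymes, 1 passed in a genotype comparison without the block. This was Pgam2, the muscle phosphoglycerate mutase, which was lower in T/BraKO (7.12 ± 1.52 normalised counts, SD, n = 3) than in WT (47.5 ± 18.6), a log2 fold change of -2.74 ± 0.51 (DESeq2 adjusted p = 3.09e-05). With the block DESeq2 gave Pgam2 no adjusted p in this comparison, and the 1 call among 16 tested was Eno3, lower in T/BraKO (-0.25 ± 0.09, adjusted p = 0.0498). With the block, 19 were tested between the mutants and 4 were higher in CdxKO with 0 lower: Pgam2 (19.7 ± 1.51 against 7.12 ± 1.52 normalised counts) and, as log2 fold changes, the phosphoglucomutase Pgm2 (0.65 ± 0.22), the muscle enolase Eno3 (0.34 ± 0.09) and the fructose-2,6-bisphosphate enzyme Pfkfb2 (0.33 ± 0.11), against 7.75% of all genes.

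Among marker genes, 6 paraxial mesoderm markers summed to 74.8 to 142 TPM in WT, 40.7 to 141 in CdxKO and 16.1 to 34.2 in T/BraKO, so T/BraKO lay below the others. The 6 neural markers summed to 39.4 to 64.1 TPM over the 9 libraries, and the 5 definitive endoderm markers to 3.04 to 23.8 TPM. The part of these lists in the values of the 36 genes was not tested.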
